A study of Arabidopsis thaliana with 12 samples.

Results

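Whole seedlings of the Arabidopsis double mutant er erl2 were compared with wild-type (WT) seedlings after both had been given auxin for 30 min, and the genes that differed were described by function. The comparison used the 3 er erl2 IAA libraries and the 3 WT IAA libraries, which are 6 of the 12 RNA-seq libraries in the series. er erl2 plants carried the alleles er-105 and erl2-1, and WT was Col-0, the accession that the labels give for both genotypes. All seedlings were 3 days past germination, had been moved from solid to liquid MS medium 30 min earlier, and then received the natural auxin indole-3-acetic acid (IAA) at 1 uM in 0.02% DMSO. The remaining 6 libraries, 3 er erl2 and 3 WT, came from seedlings given 0.02% DMSO alone (mock). The mock libraries served for the estimate of the spread and for values placed beside those under IAA. The mutant was 1 line, so a difference that belongs to the line cannot be told apart from one that belongs to the loss of either receptor. Nothing in the labels says that the libraries of a group came from separate cultures, and p-values therefore measure the spread between these libraries, which may be technical.

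ERECTA (ER), ERECTA-LIKE 1 (ERL1) and ERECTA-LIKE 2 (ERL2) are leucine-rich repeat receptor kinases that bind small secreted peptides of the EPF and EPFL families. In the shoot epidermis they work with the receptor-like protein TMM and a MAP kinase cascade that restrains SPCH, the bHLH factor that starts the stomatal lineage, and they also act in stem growth, organ shape and the shoot meristem. Auxin acts through TIR1/AFB receptors, which bring about the breakdown of Aux/IAA repressors and so free auxin response factors, and early auxin targets respond within minutes.

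Of 21376 genes tested, 2989 differed between er erl2 and WT under IAA at an adjusted p under 0.05 (edgeR quasi-likelihood test, Benjamini-Hochberg adjustment over all genes tested), which is 14.0% of them. Genes past this threshold are said to be called, or to have risen or fallen. There were 1527 genes higher in er erl2 (7.14%) and 1462 lower (6.84%). Most differences were small, with a median absolute log2 fold change of 0.47 among called genes, and 643 called genes (3.01%) differed at least 2-fold, of which 326 were higher and 317 lower. The median log2 fold change over all genes tested was -0.0029. The er erl2 and WT values, in CPM (read counts scaled to a common library size), did not overlap for 2959 of the 2989 called genes, where 33.1% of all genes tested had groups that did not overlap. Under mock 15.7% of genes were called, and the mock comparison shares no library with the IAA comparison. The count of 2989 was 1946 without er erl2 replicate 3 and 1971 without WT replicate 1. Of the 2989 genes, 2926 had a mock difference of the same sign, and for 2295 the groups also stood apart under mock in the same direction. The share of all genes tested whose groups stood apart under mock was not counted, so 2295 has no background beside it. Of the same 2989 genes, 1857 were also called under mock, all with the same sign. The other 1132 were not called under mock, 1069 of them had a mock difference of the same sign, and 224 had an unadjusted interaction p under 0.05. For the interaction itself, the test of whether a genotype difference under IAA departs from that under mock, edgeR called 0 genes, and leaving out WT mock replicate 1, 2 or 3 gave 7, 1 and 1. At an unadjusted p under 0.05 it had 1279 (5.98%), and the DESeq2 Wald test called 16. Seedling tissues were all represented in the 6 libraries, with root hair, endodermis, xylem, phloem, guard cell and photosynthesis markers detected in each.

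Calls were unevenly spread over the chromosomes. On chromosomes 4 and 5, 19.7% of the genes tested were called, against 10.4% on chromosomes 1 to 3. At 2-fold and above the shares were 6.04% on chromosome 4 and 5.40% on chromosome 5, against 1.44%, 1.27% and 1.26% on chromosomes 1, 2 and 3. ER lies on chromosome 2 and ERL2 on chromosome 5. The part that chromosomal position has in any gene group below was not tested, and counts on chromosomes 1 to 3 are given beside several groups. Counts of a gene that overlaps another in the annotation are uncertain, since the sources used here do not give the strand setting of the counting. Among the genes named, these were ERL1, SNX2b, POLAR, HDG2, MKK4, MKK5, MPK3, MPK6, SLAC1, GL2, GL3, RHS19, EXPA7, EXPA18, MYB106, EARLI1, AT4G12490, AT5G33370, RAB18, PILS5, ROT3, GA2, CESA3, CESA1, CSI1, IRX1, IRX3, IRX5, AHA11, AHA7, CYCD3;2, CYCD3;1, PORB, PORC, CRD1, LHCB2.3, PSAD-2, JAL34, YSL2, MYB72, FER1, SWEET1, SIP1;2, ABCG42, ABCG1, FKF1, LNK1, LNK2, FLC, RPP5, AT4G16920, AT4G16857, RLP47, AT3G05730, MYB3R-5, AT2G02450, AT5G24240, AT5G18840, HTA4 and AT3G06355.

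**Figure D1:**
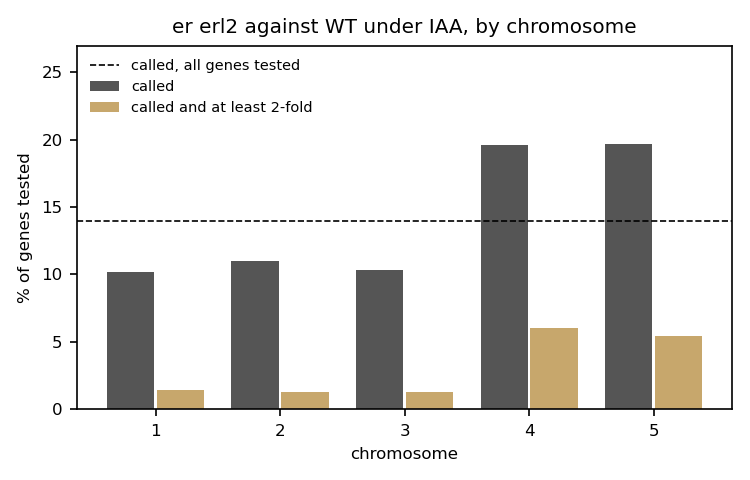
Share of tested genes called for er erl2 against WT under IAA on each nuclear chromosome (dark bars, % of genes tested) and share called with at least a 2-fold difference (light bars). The dashed line is the 14.0% called over all genes. Chromosomes 4 and 5 stand at 19.6% and 19.7%, and chromosomes 1 to 3 between 10.2% and 11%.

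The mutated genes were checked first. ER stood at 6.89, 6.70 and 8.39 CPM in er erl2, against 53.1, 58.9 and 53.8 CPM in WT. The log2 fold change was -2.92, SE 0.153, adjusted edgeR p 1.09e-07, and the residual ER signal in each er erl2 library came from 200 to 253 counts. ERL2 was at 2.48, 2.98 and 2.42 CPM in er erl2, against 9.07, 12.3 and 9.44 CPM in WT, a log2 fold change of -1.97, SE 0.168, adjusted edgeR p 2.08e-06. Both genes were lower in every mutant library than in any WT library, so the labels hold in all 6. ERL1, the family member left intact, was at 4.85, 5.33 and 4.05 CPM in er erl2, against 2.82, 1.7 and 1.61 CPM in WT, higher by 1.21, SE 0.211, adjusted edgeR p 0.00163 on the log2 scale. ERL1 overlaps AT5G62240 in the annotation, so its counts are uncertain. Genes directly beside ERL2 on chromosome 5 also differed. ATS3 (AT5G07190), an embryo-specific gene, had 0, 2 and 1 counts in the er erl2 libraries, against 10, 25 and 13 counts in the WT libraries, and GA20OX3 (AT5G07200), a gibberellin 20-oxidase, had 10, 13 and 15 counts in the er erl2 libraries, against 0 counts in each WT library. Against a floor of 3 counts per WT library, GA20OX3 was at least 4.41-fold higher in er erl2. The next neighbour, the co-chaperone gene BAG3, was lower by 0.32 on the log2 scale (adjusted edgeR p 0.00598), while SNX2b and LAC13 on the other side were not called.

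Regulators of the stomatal lineage were among the genes that rose in er erl2. Of 12 stomatal lineage regulators tested, 6 were higher and 0 lower, or 50.0% where 14.0% of all genes were called, and the list's median log2 fold change was 0.28. SPCH was at 25.3, 27.7 and 22.03 CPM in er erl2, against 8.87, 11.8 and 10.7 CPM in WT (log2 fold change 1.25, SE 0.145, adjusted edgeR p 7.91e-05). Its bHLH partners ICE1 and SCRM2 rose by 0.45 and 0.48. FAMA, which drives the last step to guard cells, was at 20.6, 19.8 and 16.4 CPM in er erl2, against 10.8, 11.9 and 12.4 CPM in WT and rose by 0.70. MUTE, which acts between SPCH and FAMA, was not called (log2 fold change 0.01, adjusted edgeR p 0.99). The genes of the polarity proteins that mark unequal divisions rose too. BASL had 5.16, 6.43 and 4.31 CPM in er erl2, against 2.05, 1.58 and 1.58 CPM in WT, a log2 fold change of 1.61, SE 0.204, adjusted edgeR p 1.15e-04. POLAR had 7.88, 9.11 and 6.57 CPM in er erl2, against 3.26, 3.79 and 2.80 CPM in WT, a log2 fold change of 1.25, SE 0.153, adjusted edgeR p 7.71e-05, with an overlap with AT4G31810 in the annotation that leaves its counts uncertain. The er erl2 and WT values did not overlap for any of the 6 called genes, and leaving out any one library left the count at 6. The epidermal identity genes ATML1 and HDG2 were not called (-0.09 and -0.07). On chromosomes 1 to 3 the count was 3 of 8. In bulk seedlings, more stomatal lineage cells and more RNA per cell cannot be told apart.

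Among the receptors and ligands, TMM and the peptide gene EPF2 rose with the lineage genes. TMM was at 29.2, 42.5 and 27.6 CPM in er erl2, against 10.9, 10.6 and 9.18 CPM in WT (log2 fold change 1.69, SE 0.150, adjusted edgeR p 1.12e-05). All er erl2 values were above all WT values, and er erl2 replicate 2 was the highest in each of TMM, EPF2, SPCH, BASL and POLAR. EPF2, the peptide that early lineage cells secrete to restrain SPCH, was at 6.61, 9.38 and 5.71 CPM in er erl2, against 2.19, 2.06 and 1.41 CPM in WT (log2 fold change 1.93, SE 0.270, adjusted edgeR p 4.90e-04). EPF1, which acts later in the lineage, had a log2 fold change of 0.70 that missed the threshold (adjusted edgeR p 0.074). EPFL9, the stomagen peptide that competes with EPF2, was not called under IAA (0.24, adjusted edgeR p 0.472) but was under mock (0.84). EPFL4 was at 0.10 under IAA and -1.54 under mock, where it was called, with an unadjusted interaction p of 0.0296 and no call for the interaction. Of the 13 receptor and peptide genes, 3 rose and 2, the mutated ones, fell (38.5%, where 14.0% of all genes were called). SDD1, a secreted subtilase that limits stomatal number, was at 9.06, 8.98 and 7.30 CPM in er erl2, against 4.27, 4.95 and 4.01 CPM in WT (log2 fold change 0.94, adjusted edgeR p 5.56e-04). With SDD1, 25.0% of 12 co-receptor and cascade genes were called. The rest of the 12 gave 1 rise and 1 fall, in SERK4 (0.48) and BSK1 (-0.20). Calls in this list numbered 1 without er erl2 replicate 1 or 3 or WT replicate 1. YDA, MKK4, MKK5, MPK3 and MPK6 were not called, with log2 fold changes between -0.09 and 0.31.

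Genes of mature guard cells included a few calls. Of 9 markers, 2 rose and 0 fell (22.2%, where 14.0% of all genes were called), with a median log2 fold change of 0.31. Under mock 5 were higher and 1 lower, with a median of 0.54, where 15.7% of all genes were called. For the interaction, 0 of the 9 had an unadjusted edgeR p under 0.05. MYB60, a guard cell MYB factor that promotes opening, was at 27.3, 28.7 and 19.9 CPM in er erl2, against 13.46, 14.8 and 14.1 CPM in WT (log2 fold change 0.84, adjusted edgeR p 2.36e-04). TGG1, the guard cell and idioblast myrosinase, was at 2261, 2092 and 1732 CPM in er erl2, against 1176, 1425 and 1394 CPM in WT (log2 fold change 0.61). The inward potassium channels KAT1 and KAT2, the anion channel SLAC1 and the kinases HT1 and OST1 were not called, with log2 fold changes between 0.11 and 0.47, and calls numbered 4 without er erl2 replicate 3.

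Trichome regulators were mostly lower where called. Of 13 tested, 4 fell and 1 rose (38.5%, where 14.0% of all genes were called), and the median was -0.28. The libraries were of whole seedlings, so the tissue in which these genes differed cannot be told. GL1, the MYB factor that starts leaf hairs, had 8, 8 and 4 counts in the er erl2 libraries, against 38, 30 and 26 counts in the WT libraries (log2 fold change -2.17, SE 0.339, adjusted edgeR p 7.04e-04). MYB23, its close relative, had 15, 23 and 13 counts in the er erl2 libraries, against 114, 110 and 87 counts in the WT libraries (log2 fold change -2.55, SE 0.290, adjusted edgeR p 3.89e-05). GL2, the homeodomain factor downstream of both, was at 2.57, 2.85 and 2.69 CPM in er erl2, against 11.03, 9.81 and 7.11 CPM in WT (log2 fold change -1.79, SE 0.161, adjusted edgeR p 3.64e-06), though it overlaps 2 annotated genes and its counts are uncertain. TTG2, a WRKY factor of the same pathway, fell by 0.80, a call lost in 4 of the alternative fits. The single gene that rose was ETC3, a single-repeat MYB that inhibits trichome fate, at 2.6, 4.72 and 2.49 CPM in er erl2, against 0.563, 0.984 and 1.05 CPM in WT (log2 fold change 1.91, SE 0.310, adjusted edgeR p 9.62e-04). TTG1, GL3 and EGL3, which form the complex with GL1, were not called (0.03, 0.41 and 0.29). The 5 called genes had mock differences of the same sign, all 5 also called there, and 3 of 7 list members on chromosomes 1 to 3 fell. The plot of CPM by library shows both sets of epidermal genes.

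**Figure D2:**
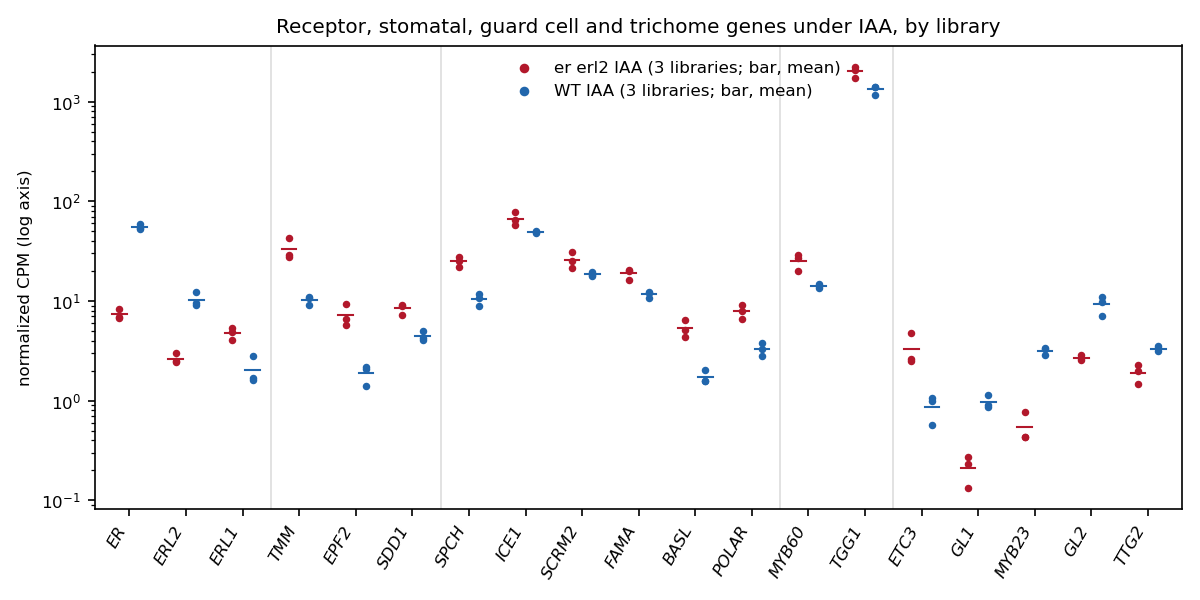
Normalized CPM (log axis) of receptor, stomatal, guard cell and trichome genes in each er erl2 IAA library (left of each pair) and each WT IAA library (right of each pair), with a bar at the mean of 3 libraries. The er erl2 points lie above the WT points for the stomatal and guard cell genes and for ETC3, and below them for ER, ERL2, GL1, MYB23, GL2 and TTG2.

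Root hair genes leaned lower. Of 15 tested, 3 fell and 1 rose under IAA (26.7%, where 14.0% of all genes were called), with a median of -0.29. Under mock 9 fell and 0 rose, with a median of -0.56, where 15.7% of all genes were called. For the interaction, 0 of the 15 had an unadjusted edgeR p under 0.05, where 5.98% of all genes had one. RHS19, a root hair peroxidase gene, was at 22.2, 16.9 and 22.2 CPM in er erl2, against 33.9, 28.6 and 36.6 CPM in WT (log2 fold change -0.69, adjusted edgeR p 0.0031). RHS13 fell by 0.53 and MOP10, an Ole e 1 family gene, by 0.45. RSL2, a bHLH factor that promotes hair growth, rose by 0.74, and this call was lost in 10 alternative fits. The expansins EXPA7 and EXPA18 and the glycosylphosphatidylinositol-anchored protein gene COBL9 were not called under IAA, at -0.29, -0.27 and -0.28. The summed level of the list was 138 to 180 CPM in er erl2 and 192 to 230 CPM in WT. None of the 8 members on chromosomes 1 to 3 was called (0), where 10.4% of all genes there were called. Root hair calls numbered 2 without er erl2 replicate 1 or 2 or WT replicate 1 or 3.

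Surface lipid genes were called at about the share of all genes. Of 31 wax, cutin and lipid transfer genes, 4 fell and 0 rose (12.9%, where 14.0% of all genes were called). CER1, of alkane formation in the wax pathway, was at 11.7, 14.7 and 14.6 CPM in er erl2, against 40.1, 35.2 and 37.2 CPM in WT (log2 fold change -1.46, SE 0.196, adjusted edgeR p 7.53e-04). WSD1, a wax ester synthase, had 0, 1 and 0 counts in the er erl2 libraries, against 18, 9 and 16 counts in the WT libraries, and MYB106, a MYB factor of cuticle and trichome formation, had 3, 0 and 2 counts in the er erl2 libraries, against 21, 14 and 9 counts in the WT libraries. No er erl2 library of these 2 genes held more than 3 counts. LTP2, a lipid transfer protein, fell by 0.46. Wax and cutin calls numbered 2 without WT replicate 1. Of 62 lipid transfer proteins and protease inhibitors, 11 fell and 4 rose (24.2%). EARLI1 was at 42.1, 48.5 and 45.2 CPM in er erl2, against 158, 129.6 and 167 CPM in WT (log2 fold change -1.74, SE 0.0977, adjusted edgeR p 3.50e-08), and its chromosome 4 neighbours AT4G12490 and AT4G12510 fell by 2.23 and 2.52. Of 63 GDSL lipases, 9 rose and 6 fell (23.8%), and calls numbered 9 without er erl2 replicate 1 or 2. AT5G33370 was at 0 counts in each er erl2 library and at 11.9, 10.3 and 8.82 CPM in WT, at least 108-fold lower. AT5G08460 rose by 4.22.

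Lists of other cell types, meristems and seed genes were called at shares on both sides of the 14.0% of all genes. Shares were above it for shoot meristem and organ polarity genes (22.2%), phloem genes (20%) and seed genes (16.7%). The share was below it for endodermis and suberin genes (7.14%). Xylem and secondary wall genes gave 0 calls in 14 and root meristem genes 0 in 13. At an unadjusted edgeR p under 0.05 there were 0 xylem and 3 root meristem genes, and DESeq2 and limma-voom called 0 in both lists. Leaving out WT mock replicate 3 gave 1 root meristem call. The endodermis and suberin list had 1 fall in 14, CYP86A1 (-0.29), and the phloem list 2 falls in 10, BRX (-0.54) and the sieve element protein gene SEOR2 (-0.38). Phloem calls numbered 0 without er erl2 replicate 1 or WT replicate 2 and 1 without er erl2 replicate 3 or WT replicate 3. Endodermis calls numbered 0 without er erl2 replicate 3 or WT replicate 1 or 3, 2 without er erl2 mock replicate 2 or WT mock replicate 3 and 3 without WT mock replicate 1. Of 18 shoot meristem and organ polarity genes, 2 rose and 2 fell. FIL, a YABBY factor of the abaxial leaf side, was at 40.9, 48.9 and 38.9 CPM in er erl2, against 60.2, 56.0 and 56.6 CPM in WT (log2 fold change -0.42, adjusted edgeR p 0.00262). Its paralogue YAB3 rose by 0.25, PHV of the adaxial side fell by 0.26 and the meristem receptor CLV1 rose by 0.26. Shoot meristem calls numbered 1 without er erl2 replicate 1 or WT replicate 2 and 2 without er erl2 replicate 3 or WT replicate 1. Only 6 of 18 seed maturation and storage genes passed the count filter, and of these RAB18, a dehydrin, rose by 0.78. Seed gene calls numbered 0 without er erl2 replicate 1 or 2 or WT replicate 1 or 3 and 2 without WT mock replicate 2.

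Core auxin signalling genes were near the background. Of 28 Aux/IAA repressors, 1 rose and 2 fell (10.7%). IAA26 was at 46.7, 49.5 and 38.3 CPM in er erl2, against 59.96, 57.6 and 57.5 CPM in WT (log2 fold change -0.38, adjusted edgeR p 0.00882), IAA16 fell by 0.25 and IAA8 rose by 0.20. Of 21 receptor and response factor genes 2 rose, ARF11 (0.72) and ARF18 (0.39), and 0 fell. Of 20 genes of auxin synthesis, conjugation and oxidation only GH3.6, an auxin-conjugating enzyme, was called, lower by 0.35. The GH3.6 call was lost in 6 alternative fits. Aux/IAA calls numbered 5 without WT mock replicate 1. For auxin synthesis calls numbered 0 without er erl2 replicate 1 or 3 or WT replicate 1 or 3 and 2 without WT mock replicate 1. For receptors and response factors calls numbered 0 without er erl2 replicate 3 or WT replicate 3, 1 without WT replicate 2 and 4 without WT replicate 1.

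Auxin carriers were called in both directions. Of 21 transport genes, 1 rose and 4 fell (23.8%). LAX1, an influx carrier, was at 40.5, 37.9 and 39.6 CPM in er erl2, against 21.1, 22.2 and 22.5 CPM in WT (log2 fold change 0.84, SE 0.0881, adjusted edgeR p 1.64e-05), and the mock difference was 0.87. LAX3, another influx carrier, fell by 0.30. PIN5, an efflux carrier of the endoplasmic reticulum, had 9, 5 and 11 counts in the er erl2 libraries, against 26, 40 and 33 counts in the WT libraries (log2 fold change -1.93, adjusted edgeR p 0.0036). PILS3 and PILS5, which hold auxin inside the cell, fell by 0.30 and 0.50. AUX1, PIN2, PIN3, PIN4 and PIN7 were not called, at log2 fold changes between -0.29 and 0.06. Transport calls numbered 3 without er erl2 replicate 2 or 3 or WT replicate 1, 2 or 3.

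SAUR genes, short-lived auxin-induced RNAs whose proteins activate proton pumps and promote cell expansion, were called in both directions. Of 64 tested, 3 were higher and 7 lower in er erl2 under IAA (15.6%, where 14.0% of all genes were called), with a median of -0.06. Under mock 22 were higher and 4 lower, with a median of 0.27, where 15.7% of all genes were called. The interaction had an unadjusted p under 0.05 for 24 of the 64, where 5.98% of all genes had one, and edgeR called 0. SAUR19 was at 11.2, 12.2 and 10.8 CPM in er erl2, against 9.02, 7.34 and 7.995 CPM in WT under IAA (log2 fold change 0.49), and its mock difference was 1.79 (unadjusted interaction p 1.17e-05). SAUR26 had a log2 fold change of -0.14 under IAA and 0.85 under mock, and SAUR29, SAUR50 and SAUR65 were at -0.13, -0.09 and -0.17 under IAA against 0.74, 0.67 and 0.88 under mock. SAUR71, at 6.72, 5.19 and 6.40 CPM in er erl2, against 1.48, 1.31 and 1.55 CPM in WT, was called under both treatments (log2 fold change 2.08 under IAA and 1.90 under mock). SAUR20 was at 4.82, 4.02 and 3.81 CPM in er erl2, against 12.3, 13.4 and 14.02 CPM in WT (log2 fold change -1.65), SAUR36 fell by 0.73 and SAUR77 by 0.65. Members of this family share sequence, so counts that could be split between copies are uncertain. SAUR calls numbered 6 without er erl2 replicate 3. The plot of genotype differences under both treatments shows the family beside ribosomal protein and root hair genes.

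**Figure D3:**
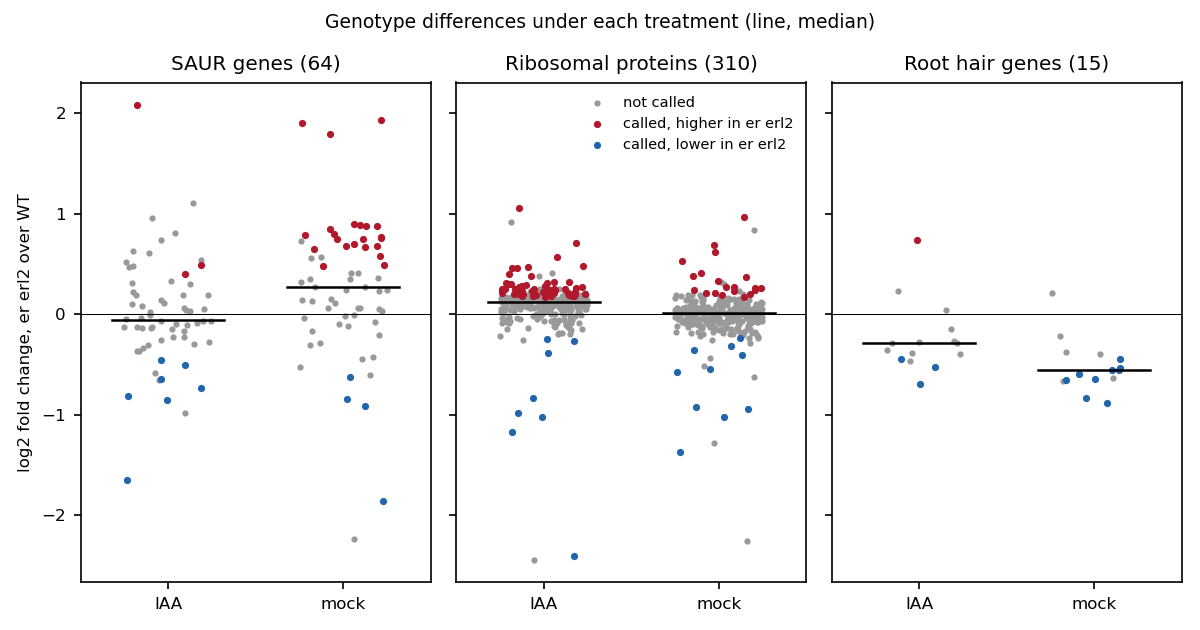
Log2 fold changes of er erl2 over WT under IAA (left of each panel) and under mock (right) for 64 SAUR genes, 310 ribosomal protein genes and 15 root hair genes, with a line at the median and colour for genes called. SAUR medians are -0.06 under IAA and 0.27 under mock, ribosomal medians 0.12 and 0.0079, and root hair medians -0.29 and -0.56. For the interaction of genotype and IAA, edgeR called 0 genes.

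Hormone genes other than those of auxin were called at shares between 7.14% and 17.9% by list, where 14.0% of all genes were called. Brassinosteroid genes had 4 falls and 0 rises in 27 (14.8%). BR6OX2, which makes the active brassinosteroid, was at 18.3, 23.1 and 12.2 CPM in er erl2, against 51.3, 38.5 and 52.1 CPM in WT (log2 fold change -1.40, SE 0.229, adjusted edgeR p 0.00341). The receptor gene BRI1 fell by 0.25 and ROT3, a biosynthetic P450, by 0.31. Brassinosteroid calls numbered 2 without er erl2 replicate 3 or WT replicate 1 or 2. Gibberellin genes had 3 rises and 2 falls in 28. GA3, the ent-kaurene oxidase, was at 53.0, 56.2 and 50.2 CPM in er erl2, against 70.7, 72.0 and 75.2 CPM in WT (log2 fold change -0.45, adjusted edgeR p 1.52e-04), GA2 of the preceding step rose by 0.40, and the peptide genes GASA4 and GASA1 were at 0.35 and -0.30. The third rise was GA20OX3, given above. Gibberellin calls numbered 2 without er erl2 replicate 3 or WT replicate 1, 3 without er erl2 replicate 1 or WT replicate 3 and 8 without WT mock replicate 1.

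Cytokinin genes had 2 rises and 2 falls in 26. IPT3, a synthesis gene, rose by 0.76, the activating enzyme gene LOG1 rose by 0.48, IPT1 fell by 1.07 and the response regulator ARR4 by 0.37, and calls numbered 0 without er erl2 replicate 3 and 1 without WT replicate 1. Ethylene genes had 2 rises and 2 falls in 26. ACS8, an ACC synthase that auxin induces, was at 7.85, 7.84 and 5.74 CPM in er erl2, against 24.8, 15.8 and 14.97 CPM in WT (log2 fold change -1.37, adjusted edgeR p 0.0028), while ACS7 rose by 0.71 and EBF1, which marks EIN3 for breakdown, rose by 0.26. Abscisic acid genes had 4 falls and 0 rises in 27 (14.8%, where 14.0% of all genes were called). The falls included the receptors PYL5 (-0.29) and PYR1 (-0.29) and the cold-induced KIN1 (-0.82). Of the 13 abscisic acid genes on chromosomes 1 to 3, 0 were called. Jasmonate genes had 2 falls in 28, MYC4 (-0.32) and JAZ7 (-1.04), and salicylate and immune signalling genes 2 rises and 1 fall in 27. PR5, a pathogenesis-related protein gene, had 14, 16 and 18 counts in the er erl2 libraries, against 51, 37 and 40 counts in the WT libraries (log2 fold change -1.36), and RIN4 and SAG101 rose by 0.33 and 0.61. Jasmonate calls numbered 0 without er erl2 replicate 1 or 3 or WT replicate 3 and 1 without WT replicate 1 or 2. Immune signalling calls numbered 5 without er erl2 replicate 2.

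Cell wall genes were called in both directions. Genes of cellulose synthesis had 4 falls and 0 rises in 12 (33.3%, where 14.0% of all genes were called). The 4 that fell were all genes of the primary wall. CESA3 was at 924, 916 and 869.7 CPM in er erl2, against 1031, 1108 and 1114 CPM in WT (log2 fold change -0.26), CESA1 at 652, 688 and 562 CPM in er erl2, against 762, 797 and 799 CPM in WT (-0.31), and COB and CSI1, which guide cellulose deposition, fell by 0.18 and 0.38. The secondary wall synthases IRX1, IRX3 and IRX5 were not called, at -0.15, -0.11 and -0.11. Cellulose calls numbered 2 without er erl2 replicate 1 or 3 or WT replicate 2 or 3. Xyloglucan endotransglucosylase/hydrolases, which cut and rejoin xyloglucan, had 1 rise and 4 falls in 29 (17.2%). XTH31 was at 90.7, 115 and 118 CPM in er erl2, against 52.8, 56.8 and 70.0 CPM in WT (log2 fold change 0.85), and XTH7, XTH8 and XTH33 fell by 0.55, 0.39 and 0.75. Their calls numbered 3 without WT replicate 1. Expansins, which loosen walls, had 3 rises and 2 falls in 24 (20.8%), with EXPA6 (0.35) and EXPA4 (0.35) higher and EXPA3 (-0.94) lower. Expansin calls numbered 2 without er erl2 replicate 3 or WT replicate 1 and 3 without er erl2 replicate 1 or er erl2 mock replicate 3 or WT replicate 2. The er erl2 and WT values of EXPA4 overlapped. Of 9 plasma membrane proton pumps (22.2% called), AHA11 rose (112, 107 and 102 CPM in er erl2, against 78.3, 73.8 and 76.8 CPM in WT, log2 fold change 0.49, SE 0.0538, adjusted edgeR p 2.60e-05) and AHA7 fell by 0.39. Both overlap annotated genes, so their counts are uncertain, and calls numbered 1 without WT replicate 1.

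Class III peroxidases, which act on wall phenolics and reactive oxygen, were called in 30.6% of 62 genes, with 7 rises and 12 falls. Their share on chromosomes 1 to 3 was 33.3%. AT5G17820 was at 73.7, 59.4 and 73.1 CPM in er erl2, against 112, 109 and 117 CPM in WT (log2 fold change -0.72, SE 0.0959, adjusted edgeR p 2.27e-04), AT1G34510 fell by 1.16 and PRXCA by 1.14. AT3G32980 was at 681, 712 and 763 CPM in er erl2, against 508, 455 and 479 CPM in WT and rose by 0.58, and AT2G18150 and AT4G36430 rose by 1.69 and 1.27. Peroxidase calls numbered 12 without WT replicate 1. Extensins, arabinogalactan proteins and proline-rich proteins had 8 rises and 13 falls in 90 (23.3%). AT2G27385 was at 105, 119 and 98.9 CPM in er erl2, against 32.3, 34.1 and 34.7 CPM in WT (log2 fold change 1.68, SE 0.131, adjusted edgeR p 5.24e-06), and EXT6, PRP2 and AGP17 fell by 0.91, 0.87 and 0.83. Extensin family calls numbered 11 without WT replicate 1 and 13 without er erl2 replicate 1 or WT replicate 3. Pectin-modifying enzymes had 7 rises and 7 falls in 120 (11.7%, where 14.0% of all genes were called). AT5G55720, a pectin lyase-like gene, had 0 counts in each er erl2 library, against 51, 30 and 37 counts in the WT libraries, AT5G04310 fell by 1.17, and PME5 and AT3G62820 rose by 0.44 and 0.76.

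Cell cycle genes were called at or below the share of all genes. Of 28 G1 and S phase genes, 4 rose and 0 fell (14.3%, where 14.0% of all genes were called), and 25 had log2 fold changes above 0, with a median of 0.14. CYCD3;2, a D-type cyclin, was at 47.0, 54.4 and 55.8 CPM in er erl2, against 38.5, 39.6 and 39.3 CPM in WT (log2 fold change 0.42, adjusted edgeR p 0.0027). CYCD3;1 rose by 0.38 and the replication helicase subunits MCM2 and MCM4 by 0.33 and 0.30. G1 and S phase calls numbered 2 without er erl2 replicate 1, 2 or 3 or WT replicate 1 or 3. Of 33 mitotic genes (3.03% called), CYCA3;2 rose by 0.33 and 0 fell. Mitotic calls numbered 0 without er erl2 replicate 1, 2 or 3 or WT replicate 1 or 3 and 2 without er erl2 mock replicate 2 or WT replicate 2.

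Ribosomal protein genes, cytosolic and organellar together, had 54 rises and 8 falls in 310 (20%, where 14.0% of all genes were called), with a median of 0.12 and 255 of 310 above 0. Their summed level was 44726 to 45867 CPM in er erl2 and 39217 to 42165 CPM in WT, without overlap between the groups. Under mock they had 20 rises and 10 falls and a median of 0.0079. The interaction had an unadjusted edgeR p under 0.05 for 25 of the 310, where 5.98% of all genes had one, and 0 were called. On chromosomes 1 to 3 there were 27 rises and 0 falls among 193. Single genes moved little. AT5G09510, an S19 family protein, was at 113, 112 and 121 CPM in er erl2, against 85.6, 88.4 and 77.9 CPM in WT (log2 fold change 0.46, SE 0.0583, adjusted edgeR p 1.17e-04). Larger differences came from organellar or isolated members, such as AT5G40080, a mitochondrial protein that rose by 1.05, and PSRP6, a plastid protein at 68.3, 71.2 and 78.6 CPM in er erl2, against 152, 133 and 148 CPM in WT that fell by 0.99. The ribosomal calls numbered 26 without er erl2 replicate 3, 29 without WT replicate 3 and 40 without er erl2 replicate 1. In a fit of the IAA libraries alone 36 were called. Core histones had 5 rises and 1 fall in 45 (13.3%, a share near that of all genes). The neighbouring genes AT5G10390 and AT5G10400 moved in opposite directions, AT5G10390 at 18.0, 16.9 and 18.5 CPM in er erl2, against 9.34, 9.13 and 7.96 CPM in WT and AT5G10400 at 3.89, 4.52 and 4.41 CPM in er erl2, against 39.4, 43.8 and 37.4 CPM in WT. Near-identical histone copies can share reads, so these values are uncertain, and calls numbered 3 without er erl2 replicate 3 and 10 without WT replicate 2. Heat shock genes gave 0 edgeR calls in 19, with 3 at an unadjusted p under 0.05 and 1 called by DESeq2, and calls numbered 1 without WT mock replicate 1 or 3 by edgeR.

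Genes of chlorophyll synthesis were among those higher in er erl2. Of 29 chlorophyll and plastid regulators, 7 rose and 0 fell (24.1%), and on chromosomes 1 to 3 the count was 5 of 16. The protochlorophyllide oxidoreductases, which make chlorophyllide in light, all rose. PORA was at 4.93, 4.99 and 5.17 CPM in er erl2, against 1.45, 1.1 and 0.823 CPM in WT (log2 fold change 2.15, SE 0.202, adjusted edgeR p 5.80e-06), PORB at 261, 348 and 261 CPM in er erl2, against 134, 139.6 and 139 CPM in WT (1.08, SE 0.166, adjusted edgeR p 0.00193) and PORC at 113, 122 and 117 CPM in er erl2, against 87.7, 81.7 and 87.9 CPM in WT (0.45, SE 0.0663, adjusted edgeR p 4.24e-04). No er erl2 value of these 3 genes fell within the WT range. HEMA1, the first enzyme of tetrapyrrole synthesis, rose by 0.49, CRD1, of a later ring-forming step, by 0.26, and GLK1, a factor that activates photosynthesis genes, by 0.39. The light-signalling bHLH gene PIF4 rose by 0.42, whereas HY5, PHYA and PHYB were not called (-0.25, -0.21 and 0.00). Light-harvesting and photosystem genes had 6 rises and 1 fall in 42 (16.7%, where 14.0% of all genes were called), with 34 above 0 and a median of 0.07. LHCB2.2 was at 1945, 2144 and 2125 CPM in er erl2, against 1594, 1566 and 1787 CPM in WT (log2 fold change 0.33, adjusted edgeR p 0.0054), LHCB2.3 rose by 0.34, LHB1B1 by 0.32 and PSAD-2 by 0.28, and RBCS3B fell by 0.21. LHCB copies are similar in sequence and their counts are uncertain. Light-harvesting calls numbered 3 without er erl2 replicate 3 or WT replicate 2.

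Flavonoid genes that were called fell, 3 of 19 (15.8%, where 14.0% of all genes were called). TT8, the bHLH factor of proanthocyanidin and anthocyanin synthesis, had 13, 7 and 4 counts in the er erl2 libraries, against 118, 119 and 100 counts in the WT libraries (log2 fold change -3.75, SE 0.285, adjusted edgeR p 5.59e-07). The er erl2 counts of TT8 did not exceed 13. DFR, a late enzyme of that branch, was at 4.38, 4.82 and 5.34 CPM in er erl2, against 9.28, 9.64 and 9.61 CPM in WT and fell by 0.97. LDOX, of the next step, was at 4.53, 4.62 and 4.11 CPM in er erl2, against 6.82, 6.53 and 6.58 CPM in WT and fell by 0.59. All 3 lie on chromosomes 4 and 5, and 0 of 8 list members on chromosomes 1 to 3 were called. PEN1, a triterpene synthase gene on chromosome 4, was at 3.66, 3.58 and 1.96 CPM in er erl2, against 55.3, 49.6 and 41.2 CPM in WT (log2 fold change -3.98).

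Glucosinolates are defence compounds that myrosinases break down on wounding. Of 24 myrosinases and specifier proteins, 3 rose and 5 fell (33.3%). ESM1, a modifier that shifts the products of hydrolysis, was at 90.0, 99.1 and 86.3 CPM in er erl2, against 26.8, 21.9 and 21.3 CPM in WT (log2 fold change 1.98, SE 0.105, adjusted edgeR p 2.34e-08), and NSP5, a nitrile specifier, rose by 0.57. The nitrile specifier NSP3 was at 0.923, 1.54 and 1.36 CPM in er erl2, against 4.57, 3.52 and 3.78 CPM in WT (log2 fold change -1.64, SE 0.201, adjusted edgeR p 8.03e-05). PBP1, the lectin that binds the PYK10 myrosinase, was at 856, 895 and 827 CPM in er erl2, against 1245, 1107 and 1142 CPM in WT (log2 fold change -0.44), and JAL31 fell by 0.55. Breakdown calls numbered 5 without WT replicate 1. Jacalin lectins as a family had 2 rises and 7 falls in 31 (29%), with a summed level of 1207 to 1294 CPM in er erl2 and 1486 to 1766 CPM in WT. JAL34 was at 471, 507 and 440.1 CPM in er erl2, against 727, 752 and 687 CPM in WT (log2 fold change -0.61), AT1G52120 fell by 1.31, and calls numbered 5 without WT replicate 1. In synthesis, aliphatic glucosinolate genes had 2 rises and 1 fall in 24 (12.5%, where 14.0% of all genes were called). These were MYB76 (1.23), FMOGS-OX3 (0.51) and MAM1 (-0.60). The FMOGS-OX3 call was lost in 9 alternative fits, with an adjusted edgeR p of up to 0.153, and calls numbered 6 without WT mock replicate 3. Indole glucosinolate and camalexin genes had 2 rises and 0 falls in 26 (7.69%). IGMT4, an indole glucosinolate methyltransferase, was at 344, 243 and 401 CPM in er erl2, against 183, 156 and 168 CPM in WT (log2 fold change 0.96). PEN2, an atypical myrosinase, was at 421, 284 and 527 CPM in er erl2, against 221, 209 and 221 CPM in WT (log2 fold change 0.92). For both, er erl2 replicate 2 was the lowest of the mutant libraries, and the PEN2 call was lost in 8 alternative fits. Indole glucosinolate calls numbered 1 without er erl2 replicate 3 or WT replicate 1, 2 or 3 and 4 without er erl2 mock replicate 1.

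Enzyme families of metabolism were called in both directions. Cytochromes P450 had 17 rises and 14 falls in 179 (17.3%, where 14.0% of all genes were called). CYP71B3 was at 7.5, 8.17 and 6.004 CPM in er erl2, against 1.66, 1.43 and 1.84 CPM in WT (log2 fold change 2.14, SE 0.197, adjusted edgeR p 4.61e-06), its neighbour CYP71B24 rose by 2.47, and CYP706A7 had 2, 0 and 1 counts in the er erl2 libraries, against 187, 283 and 283 counts in the WT libraries. CYP78A7, of a group that promotes organ growth, was at 7.62, 8.34 and 6.97 CPM in er erl2, against 26.0, 21.3 and 19.0 CPM in WT (log2 fold change -1.53). Glutathione S-transferases had 8 rises and 2 falls in 47 (21.3%), with GSTU20 at 294, 296 and 281 CPM in er erl2, against 164, 183 and 189.9 CPM in WT (log2 fold change 0.70), GSTF14 higher by 1.75, and GSTU8 and GSTU14 lower by 0.57 and 1.96. UDP-glycosyltransferases had 8 rises and 9 falls in 106 (16.0%), led by UGT84A3 (51.7, 46.9 and 45.2 CPM in er erl2, against 24.97, 24.9 and 26.0 CPM in WT, log2 fold change 0.92), and calls numbered 6 without WT replicate 1, 7 without er erl2 replicate 3, 9 without er erl2 replicate 1 and 10 without WT replicate 2 or 3. 2-oxoglutarate dioxygenases had 4 rises and 1 fall in 91 (5.49%), a share below the background, with DMR6, a salicylate hydroxylase gene, higher by 0.48, and calls numbered 2 without er erl2 replicate 1 or 3 or WT replicate 1, 3 without WT replicate 2 or 3 or WT mock replicate 2 and 8 without er erl2 replicate 2.

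Nutrient genes were grouped by element. Iron homeostasis genes had 5 rises and 2 falls in 34 (20.6%) under IAA and 15 rises and 2 falls under mock. Of all genes, 14.0% were called under IAA and 15.7% under mock. NAS4, a nicotianamine synthase, was at 19.7, 21.0 and 23.2 CPM in er erl2, against 10.2, 13.51 and 16.0 CPM in WT (log2 fold change 0.69, adjusted edgeR p 0.00663). YSL2 rose by 0.51, and MYB72, a factor induced in iron-starved roots, had 20, 29 and 32 counts in the er erl2 libraries, against 0, 7 and 9 counts in the WT libraries. The iron store protein gene FER1 was at 34.2, 50.1 and 42.5 CPM in er erl2, against 109, 87.7 and 65.4 CPM in WT (log2 fold change -1.05), and YSL1 fell by 0.51. The uptake genes IRT1 and FRO2 and their regulator FIT were not called (0.15, -0.13 and -0.29). On chromosomes 1 to 3 the calls were 2 of 22. Iron calls numbered 4 without er erl2 replicate 2 or 3 or WT replicate 1 and 12 without WT replicate 3.

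Phosphate starvation genes had 2 rises and 4 falls in 21 (28.6%), with 0 calls among the 11 on chromosomes 1 to 3. The phosphate transporter gene PHT1;2 was at 8.42, 11.6 and 9.98 CPM in er erl2, against 0.415, 0.388 and 0.230 CPM in WT (log2 fold change 4.83, SE 0.307, adjusted edgeR p 1.38e-07), while PHT1;1, its near-identical neighbour, was at 110.1, 120.1 and 122 CPM in er erl2, against 176, 148 and 139 CPM in WT (-0.40). Reads of these copies can be split, so both values are uncertain. MGD2, a galactolipid synthase, fell and was at 1.27, 1.71 and 1.39 CPM in er erl2, against 4.15, 3.16 and 4.21 CPM in WT. SPX4, a phosphate sensor, fell by 0.61. Nitrate and ammonium genes had 4 rises and 4 falls in 26 (30.8%). The ammonium transporter gene AMT1;2 was at 33.7, 38.4 and 43.7 CPM in er erl2, against 31.1, 24.0 and 23.8 CPM in WT (log2 fold change 0.55), NRT2.6 rose by 1.39, and NRT2.7 and HHO2 were lower, NRT2.7 at 27.2, 32.5 and 24.0 CPM in er erl2, against 43.9, 42.1 and 43.6 CPM in WT and HHO2 by 0.74. Sulfate assimilation genes had 5 rises and 1 fall in 24 (25%). On chromosomes 1 to 3, 8.33% of 12 sulfate genes were called, where 10.4% of all genes there were called. SULTR3;5 rose by 0.58 and SULTR2;1 by 0.33, and the root uptake carrier SULTR1;1 was at 1.07, 1.31 and 1.39 CPM in er erl2, against 2.49, 2.89 and 2.99 CPM in WT (log2 fold change -1.15). Sulfate calls numbered 3 without er erl2 replicate 1 or 3 or WT replicate 1.

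Sugar, water and ABC carriers included a few large differences. SWEET1, a glucose carrier, was at 38.2, 46.8 and 21.8 CPM in er erl2, against 8.90, 9.16 and 10.9 CPM in WT (log2 fold change 1.88, SE 0.242, adjusted edgeR p 7.53e-04). All 3 er erl2 values of SWEET1 were above the WT values, and er erl2 replicate 3 was the lowest of them. SWEET13 and SWEET11 rose by 2.13 and 0.31, and SWEET17, a vacuolar fructose carrier, was at 27.2, 24.7 and 25.04 CPM in er erl2, against 41.1, 42.2 and 43.3 CPM in WT (log2 fold change -0.72). The UMAMIT and SWEET families had 5 rises and 4 falls in 53 (17.0%, where 14.0% of all genes were called), and calls numbered 5 without WT replicate 1. Aquaporins had 2 rises and 2 falls in 28 (14.3%, a share near that of all genes). PIP2;5 was at 10.96, 11.4 and 10.3 CPM in er erl2, against 5.55, 6.17 and 6.32 CPM in WT (log2 fold change 0.86). SIP1;2 was at 0.519, 0.536 and 0.763 CPM in er erl2, against 4.18, 4.09 and 3.95 CPM in WT (-2.75). SIP1;2 overlaps annotated genes and its counts are uncertain. ABC transporters had 5 rises and 8 falls in 53 (24.5%), with ABCG42 at 129.6, 117 and 129 CPM in er erl2, against 48.2, 36.1 and 46.0 CPM in WT (log2 fold change 1.53) and ABCG1, of suberin lipid export, lower by 0.45, and calls numbered 6 without WT replicate 1 and 8 without er erl2 replicate 1.

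Clock genes were called above the share of all genes. Of 20 clock genes, 5 rose and 2 fell (35.0%), and on chromosomes 1 to 3 the share was 36.4%. The morning gene LHY was at 152, 179 and 149 CPM in er erl2, against 204, 209.9 and 228 CPM in WT (log2 fold change -0.42, SE 0.0810, adjusted edgeR p 0.00323), whereas CCA1 was not called (-0.19). PRR7, at 128, 134 and 126 CPM in er erl2, against 92.4, 89.8 and 92.7 CPM in WT, rose by 0.50. The evening gene GI rose by 0.52, FKF1 was higher at 1.82, 2.21 and 2.99 CPM in er erl2, against 1.42, 0.805 and 1.02 CPM in WT, and CHE and LNK1 rose by 0.41 and 0.26, and LNK2 fell by 0.23. The largest of these, FKF1, codes for a blue-light receptor of the photoperiod pathway. Clock calls numbered 4 without er erl2 replicate 3. Of 17 flowering time genes, 3 rose and 1 fell (24%), and this count was 4 in every fit that left out a library. On chromosomes 1 to 3 it was 1 of 7 (14.3%). FLC, the MADS repressor of flowering, was at 0.404, 0.603 and 0.166 CPM in er erl2, against 2.94, 3.07 and 2.63 CPM in WT (log2 fold change -2.87, SE 0.300, adjusted edgeR p 1.67e-05). The related gene MAF5 was at 7.56, 8.58 and 7.20 CPM in er erl2, against 0.326, 0.626 and 0.691 CPM in WT (log2 fold change 3.83). MAF4, beside it, was at 9.35, 8.27 and 8.82 CPM in er erl2, against 1.99, 2.89 and 1.61 CPM in WT (log2 fold change 2.02). FLC, MAF4 and MAF5 lie on chromosome 5, and FLC overlaps an annotated gene. SOC1, on chromosome 2, was at 18.5, 19.97 and 21.5 CPM in er erl2, against 11.9, 11.51 and 14.6 CPM in WT (log2 fold change 0.66, SE 0.114, adjusted edgeR p 0.00152), and MAF1, MAF2 and MAF3 were not called (-0.09, 0.07 and -0.05).

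Immune receptor genes held several of the most extreme values. NLR genes, which code for intracellular receptors of pathogen effectors, had 13 rises and 18 falls in 164 (18.9%), but 8.97% on chromosomes 1 to 3. Over all genes these shares were 14.0% and 10.4%. AT4G19510 was at 1.21, 1.47 and 1.39 CPM in er erl2, against 53.1, 58.2 and 58.8 CPM in WT (log2 fold change -5.38, SE 0.111, adjusted edgeR p 5.81e-13). RPP5, a resistance gene in a chromosome 4 cluster of near copies, was at 5.80, 4.69 and 6.37 CPM in er erl2, against 75.5, 81.6 and 77.1 CPM in WT (log2 fold change -3.79, SE 0.103, adjusted edgeR p 7.57e-12), and its cluster neighbours AT4G16920 and AT4G16857 were higher, AT4G16920 at 15.9, 16.6 and 16.2 CPM in er erl2, against 3.97, 4.18 and 3.88 CPM in WT. Reads from near copies in the cluster can be split and these values are uncertain. AT5G47260 had 94, 81 and 62 counts in the er erl2 libraries, against 0 counts in each WT library. CSA1 and DAR4, neighbouring genes on chromosome 5 that act as a receptor pair, were at 0 counts in each er erl2 library, and in WT CSA1 was at 18.09, 18.23 and 20.103 CPM and DAR4 at 111, 108 and 112 CPM. Receptor-like kinases and receptor-like proteins had 35 rises and 18 falls in 263 (20%), and 11.3% were called on chromosomes 1 to 3. CRK30 was at 68.3, 69.1 and 61.6 CPM in er erl2, against 22.3, 20.9 and 24.97 CPM in WT (log2 fold change 1.55, SE 0.0983, adjusted edgeR p 9.35e-08), RLP48 rose by 0.95, and RLP47 and CRK31 fell by 2.33 and 2.09. Receptor calls numbered 31 without er erl2 replicate 3, 32 without er erl2 replicate 1 or WT replicate 2 and 34 without WT replicate 1 or 3. Of 15 defensin and cysteine-rich peptide genes, 4 rose and 2 fell (40.0%), with AT3G05730 at 437, 449 and 369.8 CPM in er erl2, against 207, 307 and 255 CPM in WT (log2 fold change 0.71), and calls numbered 2 without er erl2 replicate 1 or 3 and 3 without WT replicate 1 or 3.

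Transcription factor families were called at shares near that of all genes, between 11.1% for NAC and 17.2% for WRKY genes among families of over 50 tested genes. bHLH genes had 8 rises and 7 falls in 106. UNE10, also called PIF8, was at 11.1, 14.4 and 9.82 CPM in er erl2, against 34.5, 30.8 and 37.0 CPM in WT (log2 fold change -1.53, SE 0.157, adjusted edgeR p 4.17e-05), and ATMYC1, a regulator of epidermal fate, rose by 0.83. MYB genes had 6 rises and 9 falls in 89, with MYB3R-5 higher by 0.59 and MYB42, of the secondary wall pathway, at 0, 3 and 2 counts in the er erl2 libraries, against 35, 15 and 22 counts in the WT libraries. AP2/ERF genes had 5 rises and 6 falls in 78, with AT4G13040 at 7.36, 8.71 and 8.26 CPM in er erl2, against 33.5, 28.2 and 30.2 CPM in WT (log2 fold change -1.92). NAC genes had 5 rises and 3 falls in 72, with AT2G02450 at 17.83, 20.13 and 16.2 CPM in er erl2, against 6.76, 7.07 and 6.78 CPM in WT (log2 fold change 1.39, SE 0.0942, adjusted edgeR p 1.44e-07). WRKY genes had 7 rises and 3 falls in 58, with WRKY7 and WRKY28 higher by 0.74 and 0.59 and WRKY51 lower by 1.05. The WRKY rises included POLAR, given above with the stomatal genes, since families were drawn from annotated product text. MADS-box genes had 3 rises and 3 falls in 34, and AGL15 fell by 0.91. B3 domain genes had 2 rises and 2 falls in 20, and F-box genes 11 rises and 7 falls in 181 (9.94%, and 3.42% on chromosomes 1 to 3). AT5G32460, a B3 gene, had 264, 198 and 230 counts in the er erl2 libraries, against 0 counts in each WT library. With a library left out, bHLH calls numbered 9 without er erl2 replicate 3, and NAC calls numbered 5 without er erl2 replicate 3. AP2/ERF calls numbered 5 without er erl2 replicate 3, 6 without WT replicate 1 or 3 and 7 without er erl2 replicate 1 or WT replicate 2. WRKY calls numbered 6 without er erl2 replicate 3 or WT replicate 2. B3 calls numbered 1 without er erl2 replicate 1 or 3 or WT replicate 3 and 2 without er erl2 mock replicate 1, 2 or 3 or WT replicate 2.

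The bar plot of calls by list places the lists described here against all genes tested.

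**Figure D4:**
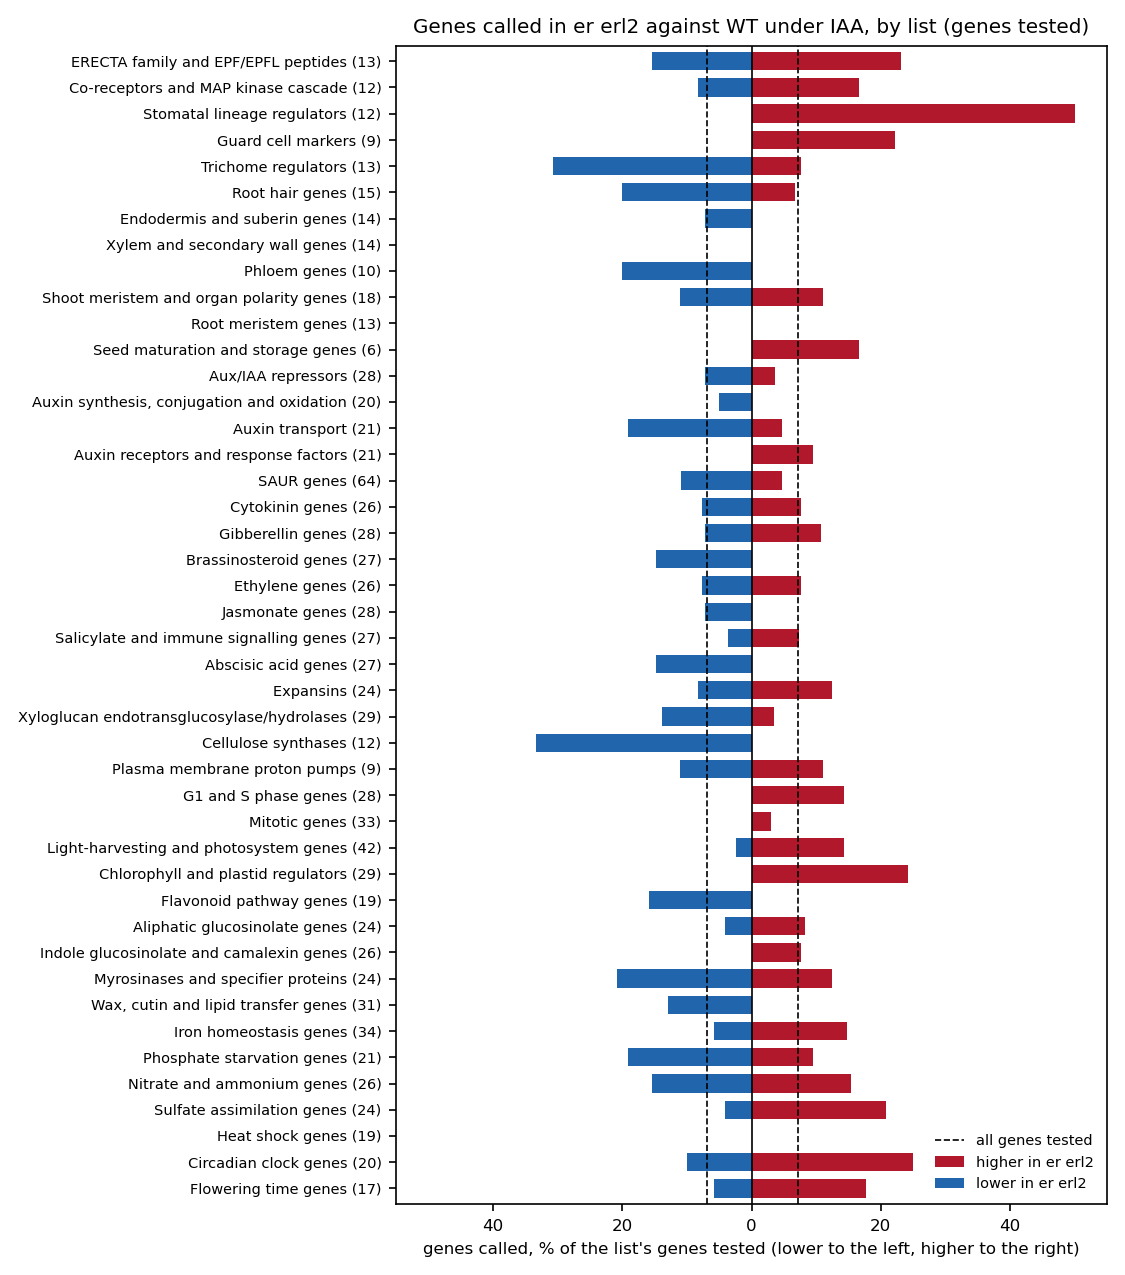
Genes called for er erl2 against WT under IAA as a percentage of the genes tested in each of 44 lists, with genes higher in er erl2 to the right and genes lower to the left. The number tested stands in brackets and the dashed lines mark the 7.14% higher and 6.84% lower over all genes. Stomatal lineage regulators reach 50.0%, all higher, and cellulose synthases 33.3%, all lower.

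Some of the largest differences were in genes of unknown product. Among called genes with at least 10 counts in each of the 6 libraries and no overlap between groups, the 10 largest increases ranged from 2.91 to 5.75 on the log2 scale. AT5G35935, of unknown product, was at 23.1, 21.6 and 18.7 CPM in er erl2, against 0.297, 0.507 and 0.362 CPM in WT. AT5G24240, a phosphatidylinositol 4-kinase gene, was at 40.3, 25.1 and 41.1 CPM in er erl2, against 1.63, 0.746 and 0.987 CPM in WT. AT5G18840, a major facilitator family carrier, was at 53.7, 60.3 and 48.6 CPM in er erl2, against 2.67, 2.09 and 2.63 CPM in WT. These 3 genes lie on chromosome 5. AT1G50290 and AT1G33930, on chromosome 1, rose by 3.63 and 3.00, and the set also held the histone gene HTA4 (2.99), MAF5 and AT4G16857. The 10 largest decreases ranged from -2.92 to -5.99. AT3G06355, a noncoding RNA gene that overlaps AT3G41979, was at 2.02, 1.54 and 1.56 CPM in er erl2, against 102, 107 and 119 CPM in WT. AT2G33850, which codes for an E6-like protein, was at 1.64, 1.44 and 1.46 CPM in er erl2, against 26.9, 20.5 and 21.7 CPM in WT. ER itself was the smallest of these 10, and PEN1, RPP5, AT4G19510 and AT5G10400 were among them.

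Some genes were present in 1 genotype only, where no library of one group held over 3 counts and every library of the other held 30 or more. There were 19 present in er erl2 only, all 19 on chromosome 4 or 5, and 16 of them met the same rule under mock. There were 23 present in WT only, 19 of them on chromosome 4 or 5, and 19 met the rule under mock. In er erl2 only, AT5G27010, an ARM repeat gene, had 475, 369 and 373 counts in the er erl2 libraries, against 0 counts in each WT library, and AT4G10990, a pseudogene, had 325, 213 and 334 counts in the er erl2 libraries, against 0 counts in each WT library. The noncoding RNA gene AT5G34871 was at 9.32, 7.57 and 11.4 CPM in er erl2 and had no more than 1 count in a WT library. In WT only, AT4G14905, a kelch repeat gene, had 0 counts in each er erl2 library, against 394, 437 and 381 counts in the WT libraries, at least 130.0-fold lower in er erl2. The 5 of highest level in WT only were DAR4, AT4G16870, CSA1, AT4G14905 and AT5G33370, and in er erl2 only AT5G33251, AT4G19240, AT5G27010, AT5G34871 and AT4G10990.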

How the data were processed

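RNA was measured in 12 whole-seedling libraries, 3 per group. Each value is a count of reads per gene, deposited without normalization. The submitters' processing notes name bcl2fastq, STAR 2.7.6a, featureCounts 2.0.0 and TAIR10, and the labels' protocols describe poly-A, directional libraries. The strand setting of the counting is not given in the sources used here. The 6 IAA libraries held 30135084 to 34885337 counts.

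Counts were tested with edgeR 4.0.16 (R 4.3.3), with TMM scaling, filterByExpr, and a quasi-likelihood fit of all 12 libraries with 1 mean per group. The adjusted p threshold was 0.05 over 21376 of 37336 genes. CPM values are counts divided by TMM-scaled library size. Names and overlaps came from TAIR10.1, which matched 37051 genes. Counts were simulated over 21203 genes, with the spread set by expression level alone and 66 genes tested at each changed fold. On these counts the IAA comparison recovered 65.2%, 90.9% and 97.0% of genes changed 1.5-fold, 2-fold and 4-fold. In the data the spread was estimated per gene and 2989 genes were called, so recovery there may differ.

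Members and lists were chosen with earlier results of these data known. Named were ER, ERL2 and ERL1, up to 3 called genes per list and direction by adjusted p, the 10 largest changes each way with at least 10 counts per library, and the 5 highest genes present in 1 genotype. Other named genes were chosen after their values were seen. Alternatives were other filters, scaling, DESeq2 1.42.0, limma 3.58.1 (voom), replicate blocks, fits of only the groups compared, a minimum log2 fold change of 1, and each library left out.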

Additional observations from a re-analysis of the deposited data

How the results depend on the processing

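The number of genes called for er erl2 against WT under IAA was 2989, and lay between 2206 and 3486 under other filters, scaling, DESeq2, limma-voom, blocks and a fit of only the groups compared. With a minimum absolute log2 fold change of 1 it was 643 under IAA and 734 under mock. Leaving out 1 library gave 1946 to 3216 calls under IAA and 2029 to 3482 under mock. The interaction had 0 calls by edgeR, 0 to 7 with 1 library left out, and 16 by the DESeq2 Wald test. The causes were not tested. With the replicate number as a block, 2590 genes were called under IAA, 2941 under mock and 0 for the interaction. Same-numbered libraries had correlations of 0.0935, -0.0975 and -0.0516, so the numbers were not taken to pair samples. A block from the numbers that start the column names, chosen after seeing the data, gave 2206 calls under IAA. Of 291 genes named by rule, 214 lost no call under any alternative and 0 reversed. Counts of gene lists moved by over 1.5 times in 261 of 1470 list and alternative pairs, most often where few genes were called. Ribosomal protein calls, 62, were 39 with the replicate block and 28 with the column-name block. Genes of low count are limited by depth, and differences in them below 2-fold may have been missed.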
